A study of Homo sapiens with 12 samples.

Results

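The MAP kinase phosphatases are dual-specificity phosphatases that switch off the MAP kinases by removing phosphate from both the threonine and the tyrosine of the activation loop. The 10 genes of the family, DUSP1, DUSP2, DUSP4, DUSP5, DUSP6, DUSP7, DUSP8, DUSP9, DUSP10 and DUSP16, were chosen by name and matched by symbol to the Ensembl identifiers of the count files. All 10 were found among 57773 counted genes, and all 10 passed the filter on low counts that left 14714 genes for testing.

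RNA was sequenced from T47D, an estrogen receptor-positive luminal breast cancer cell line. Every library came from T47D cells that carry a doxycycline-inducible shRNA (shPSMD2) targeting PSMD2, which encodes part of the 19S cap of the proteasome. In the Lo19S state the hairpin had been switched on with doxycycline at 0.2 µg/ml for 3 days and the drug had then been withdrawn for 24 h. In the control state the hairpin was uninduced. Cells were then exposed for 16 h to 20 nM bortezomib, an inhibitor of the proteasome's proteolytic core, or to its solvent DMSO. This gave 4 groups of 3 libraries: Lo19S bortezomib, control bortezomib, Lo19S DMSO and control DMSO. By the labels doxycycline was given to the Lo19S groups only, so effects of doxycycline and effects of the hairpin cannot be told apart. The labels do not say whether replicate libraries stem from separate cultures, so p-values measure the spread between these libraries, which may be technical.

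MAP kinase phosphatases differ in which kinase they bind and in where in the cell they work. DUSP1, DUSP2 and DUSP4 are nuclear enzymes of broad specificity that act on ERK, JNK and p38. DUSP5, DUSP6, DUSP7 and DUSP9 are directed at ERK, DUSP5 in the nucleus and the others in the cytoplasm. DUSP8, DUSP10 and DUSP16 are directed at the stress kinases JNK and p38. Many of the genes are themselves switched on by the kinases they inhibit, so that their transcripts are commonly read as negative feedback of the pathway. In breast epithelium, ERK signalling downstream of growth factor receptors and JNK and p38 signalling under stress are both well described.

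Library totals ran from 7376597 to 15003480 counts. PSMD2, the targeted gene, averaged 541 CPM in Lo19S bortezomib, 1512 CPM in control bortezomib, 185 CPM in Lo19S DMSO and 405 CPM in control DMSO. CPM here means a gene's counts relative to the size of its library, scaled with the TMM factors of edgeR. All 10 luminal markers were found. Their summed level ran from 3527 to 3652 CPM in Lo19S bortezomib and from 3694 to 3780 CPM in control bortezomib. It ran from 4949 to 5040 CPM in Lo19S DMSO and from 5544 to 5602 CPM in control DMSO. That sum holds members that moved apart: with bortezomib 3 of the 10 rose and 7 fell in each state. Of all genes tested, 37.8% rose and 39.7% fell in Lo19S cells, and 39.2% rose and 42.2% fell in control cells. The median log2 fold change of the 10 markers was -1.77 in Lo19S cells and -1.74 in control cells. ESR1, the estrogen receptor, averaged 38.3 CPM in Lo19S bortezomib, 28.1 CPM in control bortezomib, 201 CPM in Lo19S DMSO and 245 CPM in control DMSO, while KRT18, a luminal keratin, averaged 806, 1010.0, 509 and 573 CPM in the same groups. Summed fibroblast markers reached 69.4 CPM at most, nearly all of it COL1A1, with COL1A2 and DCN at 0 counts in Lo19S bortezomib. Leukocyte and endothelial markers stayed at or below 0.730 and 0.320 CPM in every library. The part of these marker levels in the results was not tested. Control DMSO replicate 3 stood apart from the other control DMSO libraries, since comparing its counts with theirs gave a chi-square of 3.94 and 4.27 for each degree of freedom, and all other pairs within a group gave 1.16 to 1.97. Without that library, no call on a MAP kinase phosphatase was lost and 2 were gained, which are given with DUSP4 and DUSP7.

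Proteasome inhibition raised most of the family and lowered a minority. A call here is an adjusted p below 0.05 from edgeR's quasi-likelihood test with Benjamini-Hochberg adjustment over all genes tested, and log2 fold changes come from the same fit. In Lo19S cells, 6 of the 10 phosphatases rose with bortezomib and 3 fell, where 37.8% of all genes tested rose and 39.7% fell. In control cells, 6 of 10 rose and 2 fell, where 39.2% of all genes tested rose and 42.2% fell. The same 6 genes rose in both states: DUSP1, DUSP5, DUSP6, DUSP8, DUSP10 and DUSP16. The median log2 fold change over the 10 genes was 0.59 in Lo19S cells and 0.70 in control cells, against -0.02 and -0.04 over all genes tested. The comparisons share groups of libraries and are not independent of each other. In a bulk library, less RNA of a gene per cell and fewer cells that carry it cannot be told apart.

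Wherever a call was made between the states, the phosphatase was lower in Lo19S cells. Under bortezomib, 5 of the 10 genes were lower in Lo19S than in control cells and 0 were higher, where 21.2% of all genes tested were lower and 22.0% were higher. Under DMSO, 2 of 10 were lower and 0 were higher, where 13.0% of all genes tested were lower and 11.7% were higher, so that the count of lower genes was close to the background. The bortezomib response was smaller, or more negative, in Lo19S than in control cells for 4 of 10 genes and less negative for 1, where 13.4% and 14.5% of all genes tested had a difference called in those directions. Beside the 0 genes called higher, DUSP10 under DMSO and DUSP4 under bortezomib were higher at an unadjusted p below 0.05 in the edgeR test. DESeq2 also called 0 higher, but some other settings did call these 2 genes higher: DUSP4 under bortezomib with library totals (edgeR adjusted p = 0.00855), with only the 2 groups compared (edgeR adjusted p = 0.0467) and without single libraries, and DUSP10 under DMSO without Lo19S DMSO replicate 2 (edgeR adjusted p = 0.0256).

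**Figure D1:**
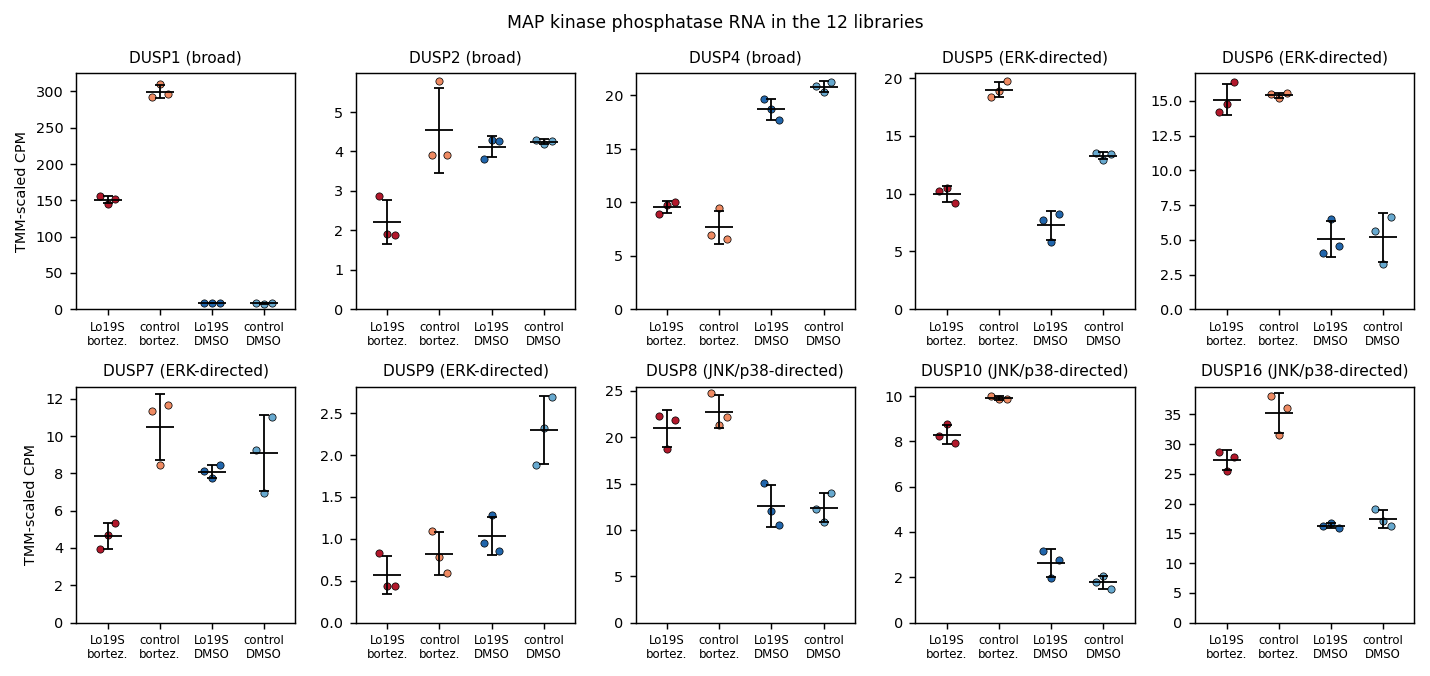
TMM-scaled CPM of each MAP kinase phosphatase in the 12 libraries, 1 point a library, with the mean as a long bar and the SD as whiskers, and a separate vertical scale from 0 for each gene. DUSP1 climbs to between 146 and 309.9 CPM with bortezomib, while DUSP9 stays below 2.7 CPM in every library.

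The plot of CPM by library shows how far the family spreads in level. The promoters of DUSP1 and DUSP8 are printed here because they were the only promoters among those matched that held a complete cAMP response element, the palindrome to which CREB and ATF factors bind. Any part of the element in the bortezomib response was not tested. DUSP1 had the largest rise of the family. DUSP8 rose by 0.74 in Lo19S cells and 0.88 in control cells (log2), less than DUSP6 and DUSP10 in either state. Each sequence is the RefSeq promoter on GRCh38.p14, a different build from the counts, covering 250 bases before and 50 bases after the annotated start, read 5′ to 3′ on the gene's own strand, with the element in capitals. DUSP1 lies at chr5:172771146-172771445 on the minus strand and DUSP8 at chr11:1572222-1572521 on the minus strand.
DUSP1: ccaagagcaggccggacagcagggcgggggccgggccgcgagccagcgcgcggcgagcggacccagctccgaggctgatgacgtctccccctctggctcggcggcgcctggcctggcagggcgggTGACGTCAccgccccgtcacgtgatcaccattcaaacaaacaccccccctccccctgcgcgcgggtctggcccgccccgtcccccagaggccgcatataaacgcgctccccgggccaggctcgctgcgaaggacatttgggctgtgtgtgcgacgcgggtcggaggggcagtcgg
DUSP8: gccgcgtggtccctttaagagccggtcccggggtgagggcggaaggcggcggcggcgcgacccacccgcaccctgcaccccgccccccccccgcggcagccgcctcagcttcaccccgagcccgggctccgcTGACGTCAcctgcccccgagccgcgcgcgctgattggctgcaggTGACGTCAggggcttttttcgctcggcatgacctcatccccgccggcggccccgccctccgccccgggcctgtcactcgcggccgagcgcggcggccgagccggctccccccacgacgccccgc

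The cAMP response element, TGACGTCA, reads the same on both strands. It began 125 bases upstream of the DUSP1 start and 118 and 74 bases upstream of the DUSP8 start. Of 35116 RefSeq promoters of the same length, 649 (1.85%) held it. Promoters were matched for 8 of the 10 genes, and not for DUSP4 and DUSP5. On either strand, none of these 8 held the AP-1 site TGANTCA, the C/EBP-ATF response element TGATGNAA or the heat shock core GAANNTTC, which occur in 7.71%, 3.62% and 6.77% of all promoters. Neither DUSP6 nor DUSP10 or DUSP16, which also rose with bortezomib, held TGACGTCA in this window. DUSP5 rose as well, but had no matched promoter to search. A match is a description of letters and not evidence of binding.

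Among the broad nuclear enzymes, DUSP1 (ENSG00000120129, chromosome 5), an immediate-early gene induced by growth factors and by stress, had the largest response of the family. It had 156, 146 and 151 CPM in Lo19S bortezomib, 293, 309.9 and 296 CPM in control bortezomib, 8.90, 8.84 and 9.28 CPM in Lo19S DMSO, and 8.14, 7.15 and 8.81 CPM in control DMSO. Every bortezomib library was far above every DMSO library, and the 2 bortezomib groups did not overlap. Bortezomib raised it by a log2 fold change of 4.07 (SE 0.07) in Lo19S cells, 16.8-fold, with an edgeR adjusted p of 7.5e-43. In control cells the log2 fold change was 5.22 (SE 0.06), 37.2-fold, with an edgeR adjusted p of 7.58e-49. Between the states, DUSP1 was called under bortezomib and not under DMSO. Under bortezomib, DUSP1 was 1.99-fold lower in Lo19S than in control cells (log2 fold change -0.99, SE 0.04, edgeR adjusted p = 1.76e-24). Under DMSO the difference of 0.16 (log2, SE 0.11) was not called at an edgeR adjusted p of 0.36, although the groups did not overlap. The response itself was smaller in Lo19S than in control cells by 1.15 on the log2 scale (95% interval of the difference -1.39 to -0.91, edgeR adjusted p = 1.83e-10). An antisense gene, AC022217.3, overlaps the DUSP1 locus on the other strand without sharing exon bases in GENCODE 29.

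DUSP2 (ENSG00000158050, chromosome 2), a nuclear phosphatase first known from activated T cells, was low in all 12 libraries. It had 2.86, 1.90 and 1.87 CPM in Lo19S bortezomib, 3.90, 5.78 and 3.92 CPM in control bortezomib, 3.82, 4.29 and 4.27 CPM in Lo19S DMSO, and 4.30, 4.18 and 4.26 CPM in control DMSO. The Lo19S bortezomib libraries lay below all 9 others, which overlapped one another. DUSP2 fell with bortezomib in Lo19S cells (log2 fold change -0.92, SE 0.22, edgeR adjusted p = 0.000221). In control cells its log2 fold change of 0.10 (SE 0.19) was not called, at an edgeR adjusted p of 0.62. Under bortezomib it was 2.10-fold lower in Lo19S than in control cells (edgeR adjusted p = 0.000123). The difference of the responses was -1.02 (log2, SE 0.29, edgeR adjusted p = 0.00624). It was no longer called without control bortezomib replicate 2, the highest library, when it was -0.80 at an edgeR adjusted p of 0.0544.

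DUSP4 (ENSG00000120875, chromosome 8), a nuclear enzyme closely related to DUSP1, went the other way from it. It had 8.94, 9.78 and 10.004 CPM in Lo19S bortezomib, 6.95, 9.44 and 6.53 CPM in control bortezomib, 19.6, 18.7 and 17.7 CPM in Lo19S DMSO, and 20.9, 20.3 and 21.2 CPM in control DMSO. All bortezomib libraries lay below all DMSO libraries. It fell with bortezomib by 0.96 on the log2 scale in Lo19S cells (SE 0.11, edgeR adjusted p = 9.13e-11) and by 1.43 in control cells (SE 0.12, edgeR adjusted p = 1.45e-15). The fall was smaller in Lo19S cells, by 0.47 on the log2 scale (SE 0.17, edgeR adjusted p = 0.0283). That difference rested on single libraries: its edgeR adjusted p was 0.0561 without Lo19S DMSO replicate 3, 0.0999 without Lo19S bortezomib replicate 3, 0.0955 without control bortezomib replicate 1 and 0.126 without control bortezomib replicate 3. DESeq2 gave it an adjusted p of 0.0915. Under bortezomib the level in Lo19S against control cells was not called (log2 fold change 0.33, edgeR adjusted p = 0.0548), but was called without control DMSO replicate 3 (edgeR adjusted p = 0.0431) and without control bortezomib replicate 2 (edgeR adjusted p = 0.00768). Under DMSO the log2 fold change of -0.15 (SE 0.09) was not called at an edgeR adjusted p of 0.26, although the groups did not overlap.

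The ERK-directed members did not move together. DUSP5 (ENSG00000138166, chromosome 10), the nuclear phosphatase that also anchors ERK in the nucleus, differed between the states under both treatments. It had 10.2, 10.5 and 9.21 CPM in Lo19S bortezomib, 18.4, 18.9 and 19.7 CPM in control bortezomib, 7.71, 5.84 and 8.21 CPM in Lo19S DMSO, and 13.5, 12.9 and 13.4 CPM in control DMSO. All 6 Lo19S libraries lay below all 6 control libraries. In Lo19S against control cells DUSP5 was 1.93-fold lower under bortezomib (log2 fold change -0.95, SE 0.12, edgeR adjusted p = 2.37e-09). Under DMSO it was 1.84-fold lower (log2 fold change -0.88, SE 0.12, edgeR adjusted p = 9.16e-08). It rose modestly with bortezomib, by 0.45 in Lo19S cells (log2, SE 0.13, edgeR adjusted p = 0.00215) and by 0.52 in control cells (log2, SE 0.10, edgeR adjusted p = 1.89e-05). The responses did not differ by a called amount, with a difference of -0.07 and a 95% interval of -0.40 to 0.27 on the log2 scale. Those 2 rises depended on the scaling: with library totals alone they were 0.16 in Lo19S cells and 0.13 in control cells and were not called (edgeR adjusted p = 0.258 and 0.229), while the median of all genes moved to -0.31 and -0.42.

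DUSP6 (ENSG00000139318, chromosome 12), the cytoplasmic ERK phosphatase commonly used as a readout of ERK activity, was called between treatments and not between states. It had 14.2, 14.7 and 16.3 CPM in Lo19S bortezomib, 15.5, 15.2 and 15.6 CPM in control bortezomib, 4.05, 6.53 and 4.59 CPM in Lo19S DMSO, and 5.65, 3.25 and 6.67 CPM in control DMSO. The treatments were fully separated and the states overlapped within each treatment. Its log2 fold change with bortezomib was 1.59 (SE 0.16, edgeR adjusted p = 8.02e-12) in Lo19S cells and 1.56 (SE 0.16, edgeR adjusted p = 1.23e-11) in control cells, 3.01-fold and 2.95-fold. The difference of the responses was 0.03 on the log2 scale, with a 95% interval of -0.42 to 0.48. Lo19S against control gave log2 fold changes of -0.01 under bortezomib (95% interval -0.27 to 0.24) and -0.05 under DMSO (95% interval -0.41 to 0.32). These intervals do not show that the states were alike, but they hold no difference of the size seen for DUSP5.

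DUSP7 (ENSG00000164086, chromosome 3), the closest relative of DUSP6 among the cytoplasmic ERK phosphatases, had a different pattern. It had 3.93, 4.67 and 5.33 CPM in Lo19S bortezomib, 11.3, 8.44 and 11.6 CPM in control bortezomib, 8.11, 7.73 and 8.42 CPM in Lo19S DMSO, and 9.27, 6.97 and 11.03 CPM in control DMSO. As with DUSP2, the Lo19S bortezomib libraries were below all others. DUSP7 fell with bortezomib in Lo19S cells (log2 fold change -0.76, SE 0.17, edgeR adjusted p = 8.68e-05) and had a log2 fold change of 0.20 in control cells that was not called (edgeR adjusted p = 0.20). That control value reached 0.34 and was called without control DMSO replicate 3 (edgeR adjusted p = 0.0254) or without control bortezomib replicate 2 (edgeR adjusted p = 0.0436). Under bortezomib DUSP7 was 2.19-fold lower in Lo19S than in control cells (edgeR adjusted p = 3.14e-07). The difference of the responses was -0.96 (log2, SE 0.22, edgeR adjusted p = 0.000807), and it was called under every alternative run.

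DUSP9 (ENSG00000130829, chromosome X), the remaining cytoplasmic member, was close to the detection floor, with 3 to 29 counts per library. It had 0.834, 0.438 and 0.432 CPM in Lo19S bortezomib, 1.10, 0.778 and 0.594 CPM in control bortezomib, 0.954, 1.29 and 0.853 CPM in Lo19S DMSO, and 1.88, 2.32 and 2.69 CPM in control DMSO. The control DMSO libraries were above all others. DUSP9 fell with bortezomib in control cells (log2 fold change -1.46, SE 0.34, edgeR adjusted p = 0.000131) and was 2.17-fold lower in Lo19S than in control cells under DMSO (edgeR adjusted p = 0.00345). In Lo19S cells the bortezomib log2 fold change of -0.91 (SE 0.43) was just short of a call, at an edgeR adjusted p of 0.0507. It was called without Lo19S DMSO replicate 3 (edgeR adjusted p = 0.0451) and without Lo19S bortezomib replicate 1 (edgeR adjusted p = 0.0248).

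The JNK/p38-directed members all rose with bortezomib in both states. DUSP8 (ENSG00000184545, chromosome 11), which binds JNK and p38 through its docking domain, had 22.3, 18.7 and 21.9 CPM in Lo19S bortezomib, 24.7, 21.3 and 22.2 CPM in control bortezomib, 15.02, 12.02 and 10.6 CPM in Lo19S DMSO, and 12.3, 10.9 and 14.0 CPM in control DMSO. All bortezomib libraries were above all DMSO libraries, and the states overlapped within each treatment. The log2 fold change was 0.74 in Lo19S cells (SE 0.11, edgeR adjusted p = 6.96e-08) and 0.88 in control cells (SE 0.11, edgeR adjusted p = 1.13e-09). No state difference was called, with log2 fold changes of -0.10 under bortezomib (95% interval -0.31 to 0.10) and 0.04 under DMSO (95% interval -0.19 to 0.27). A pseudogene of DUSP8, DUSP8P5, held 668 counts over the 12 libraries, and how reads were divided between near-identical copies is not given in the sources used here. Summing it with DUSP8, an alternative chosen after seeing the data, changed 0 of the 5 DUSP8 calls. KRTAP5-AS1 overlaps the locus on the other strand.

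DUSP10 (ENSG00000143507, chromosome 1), a phosphatase of JNK and p38 found in cytoplasm and nucleus, had the second largest rise in control cells, while in Lo19S cells its rise was within the error of that of DUSP6. It had 8.22, 8.76 and 7.92 CPM in Lo19S bortezomib, 9.99, 9.89 and 9.86 CPM in control bortezomib, 3.18, 1.97 and 2.77 CPM in Lo19S DMSO, and 1.81, 2.04 and 1.48 CPM in control DMSO. The treatments were fully separated. The rise was 3.10-fold in Lo19S cells (log2 fold change 1.63, SE 0.17, edgeR adjusted p = 8.57e-12) and 5.54-fold in control cells (log2 fold change 2.47, SE 0.18, edgeR adjusted p = 5.44e-17). The responses differed by -0.84 (log2, SE 0.27, edgeR adjusted p = 0.0167). Neither state comparison alone was called, at log2 fold changes of -0.27 under bortezomib (edgeR adjusted p = 0.115) and 0.57 under DMSO (edgeR adjusted p = 0.0688). Under bortezomib the Lo19S libraries nevertheless all lay below the control libraries. The difference of the responses was not called without Lo19S DMSO replicate 1 (-0.65, edgeR adjusted p = 0.115) and with DESeq2 (adjusted p = 0.0524). Without Lo19S DMSO replicate 2 the state difference under DMSO was called, at 0.75 and an edgeR adjusted p of 0.0256.

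DUSP16 (ENSG00000111266, chromosome 12), which shuttles between nucleus and cytoplasm and acts chiefly on JNK, was one of the more abundant members. It had 28.7, 25.4 and 27.8 CPM in Lo19S bortezomib, 38.02, 31.4 and 36.0 CPM in control bortezomib, 16.2, 16.7 and 15.9 CPM in Lo19S DMSO, and 19.1, 17.0 and 16.2 CPM in control DMSO. The bortezomib libraries were above the DMSO libraries in both states, and under bortezomib the Lo19S libraries were below the control ones. The log2 fold change with bortezomib was 0.75 in Lo19S cells (SE 0.09, edgeR adjusted p = 3.18e-10) and 0.999 in control cells (SE 0.09, edgeR adjusted p = 1.15e-14). Under bortezomib DUSP16 was 1.28-fold lower in Lo19S than in control cells (edgeR adjusted p = 0.000465). The difference of the responses, -0.25 on the log2 scale, was not called (edgeR adjusted p = 0.146). The non-coding gene AC007619.1 overlaps it on the other strand.

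**Figure D2:**
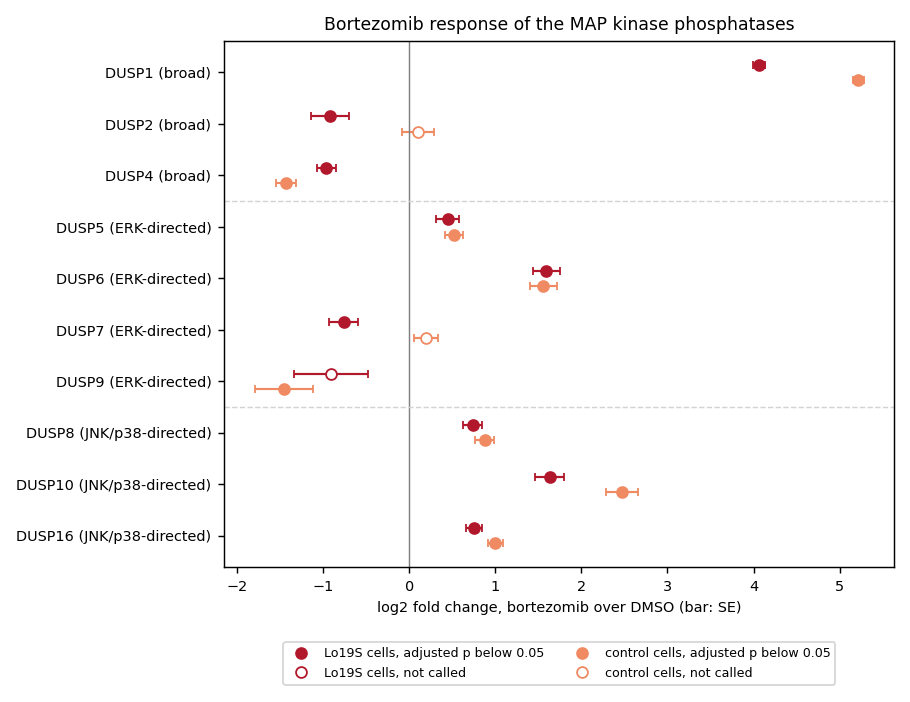
Log2 fold change of each MAP kinase phosphatase, bortezomib over DMSO, in Lo19S cells (upper, dark red) and control cells (lower, orange), with SE bars and filled points for an adjusted p below 0.05. The 3 JNK/p38-directed genes lie right of 0 in both states, while the other classes have points on both sides.

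The plot of bortezomib responses places the classes side by side. All 3 JNK/p38-directed genes rose in both states, where 37.8% of all genes tested rose in Lo19S cells and 39.2% in control cells, with log2 fold changes from 0.74 to 1.63 in Lo19S cells and from 0.88 to 2.47 in control cells, and medians of 0.75 and 0.999. Of the 4 ERK-directed genes, DUSP5 and DUSP6 rose in both states, DUSP7 fell in Lo19S cells and was not called in control cells, and DUSP9 fell in control cells and was not called in Lo19S cells. Their medians were -0.16 in Lo19S cells and 0.36 in control cells. Of the 3 broad nuclear genes, DUSP1 rose and DUSP4 fell in both states. The classes hold 3 or 4 genes each, so the medians are descriptions with no test.

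**Figure D3:**
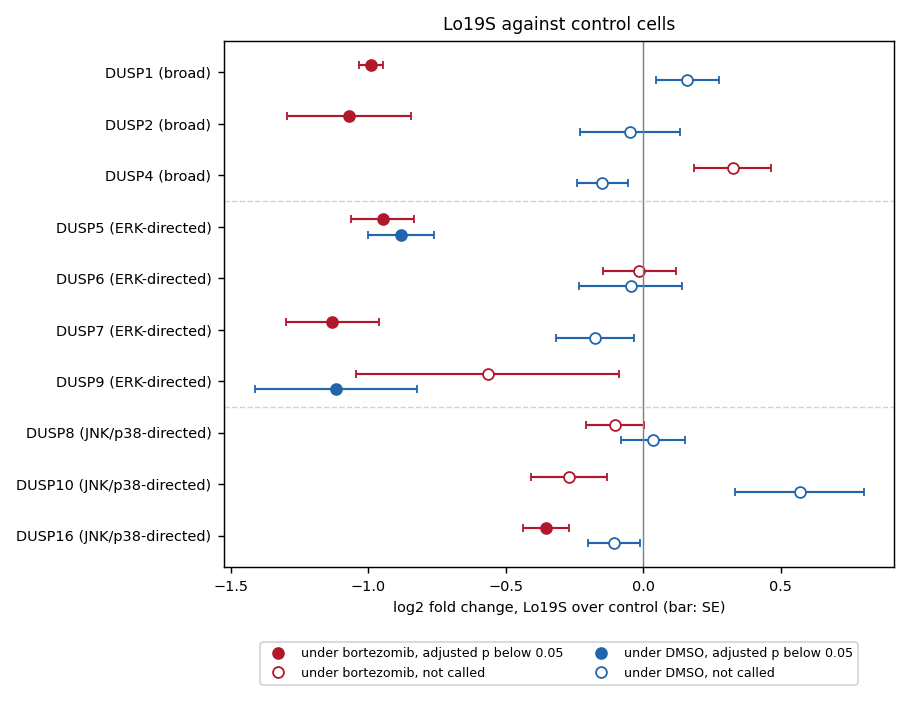
Log2 fold change of each MAP kinase phosphatase, Lo19S over control cells, under bortezomib (upper, red) and under DMSO (lower, blue), with SE bars and filled points for an adjusted p below 0.05. The filled points, DUSP1, DUSP2, DUSP5, DUSP7 and DUSP16 under bortezomib and DUSP5 and DUSP9 under DMSO, all lie left of 0.

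The plot of Lo19S against control cells gives the contrast between classes from the other side. Under bortezomib the median log2 fold change was -0.76 for the ERK-directed genes, -0.27 for the JNK/p38-directed genes and -0.99 for the broad nuclear genes, against 0.00 over all genes tested. Under DMSO the medians were -0.53, 0.04 and -0.05, against 0.00 over all genes. Both calls under DMSO, DUSP5 and DUSP9, were of ERK-directed genes. They were 2 of 10 phosphatases, where 13.0% of all genes tested were lower, so the count was close to the background. DUSP9 held only 8 to 15 counts a library in Lo19S DMSO and 25 to 29 in control DMSO. The other ERK-directed genes, DUSP6 and DUSP7, were not called under DMSO, at log2 fold changes of -0.05 and -0.17. DUSP5 was the single gene called lower in Lo19S cells under both treatments.

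Levels per kilobase of exon, which allow genes to be set against each other, were computed with GENCODE 29 exon lengths. In Lo19S bortezomib, DUSP1 led at 74.7 ± 2.48 CPM per kb (SD, n = 3), followed at a distance by DUSP16 at 4.77 and DUSP8 at 4.54, whose libraries overlapped. In control bortezomib DUSP1 stood at 148 ± 4.49 CPM per kb and DUSP5 came next at 7.27 ± 0.26. In Lo19S DMSO, DUSP1 at 4.46 ± 0.12 CPM per kb was followed by DUSP16 at 2.84, DUSP5 at 2.77, DUSP8 at 2.72 and DUSP4 at 2.57, whose neighbours in that order overlapped. In control DMSO, DUSP5 was the highest member at 5.08 ± 0.12 CPM per kb, above DUSP1 at 3.98 ± 0.41, with DUSP16 at 3.05, DUSP4 at 2.86 and DUSP8 at 2.68 overlapping in turn. DUSP9 was last in every group except control DMSO, where its libraries at 0.828 ± 0.145 CPM per kb overlapped those of DUSP10 at 0.610 ± 0.097.

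**Figure D4:**
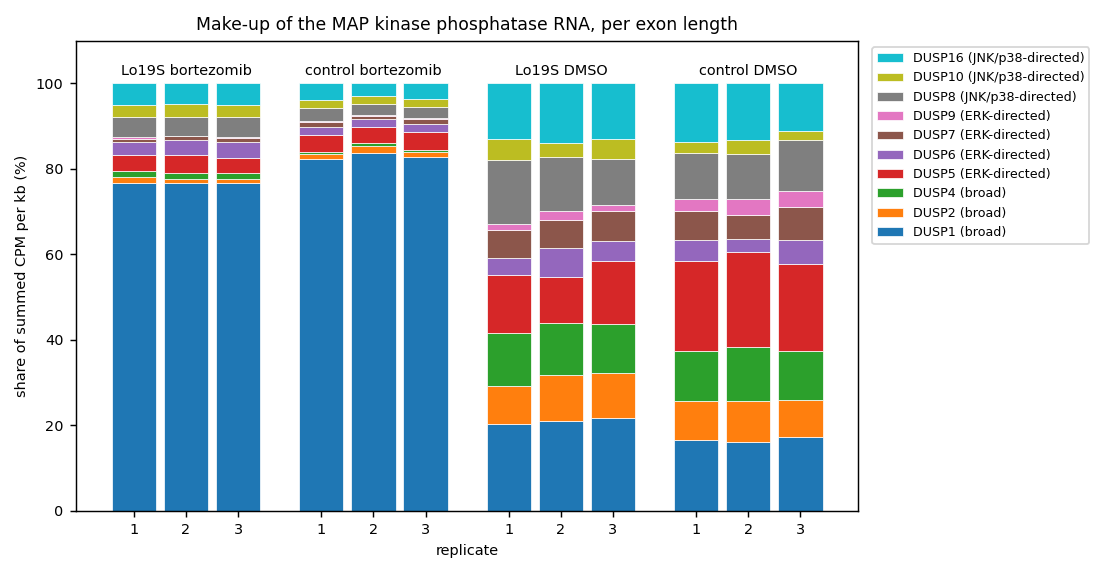
Share (%) of each MAP kinase phosphatase in the summed CPM per kb of the 10 genes, 1 stacked bar a library, grouped by state and treatment. DUSP1 takes over 76% of the sum in each bortezomib library and under 22% in each DMSO library.

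The stacked shares show how far a single gene reshaped the family. DUSP1 made up 76.7% ± 0.06 of the summed CPM per kb in Lo19S bortezomib and 82.9% ± 0.67 in control bortezomib. It made up 20.9% ± 0.77 in Lo19S DMSO and 16.5% ± 0.63 in control DMSO (SD, n = 3 each). The sum over the 10 genes was 97.4 ± 3.16 CPM per kb in Lo19S bortezomib, 179 ± 3.97 in control bortezomib, 21.3 ± 0.52 in Lo19S DMSO and 24.0 ± 1.61 in control DMSO. Without DUSP1 the sum was 22.7 ± 0.68, 30.6 ± 0.55, 16.8 ± 0.54 and 20.0 ± 1.21 CPM per kb in the same groups. The sum of the remaining 9 genes thus varied over a far narrower range than DUSP1 did. That sum holds genes that moved in opposite directions: in control cells DUSP10 rose 5.54-fold with bortezomib and DUSP4 fell 2.70-fold.

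The balance of ERK-directed to JNK/p38-directed transcript was highest in control DMSO and lowest in Lo19S bortezomib. The ratio of their summed CPM per kb was 0.630, 0.712 and 0.662 in Lo19S bortezomib and 0.828, 0.909 and 0.910 in control bortezomib. It was 0.780, 0.882 and 0.986 in Lo19S DMSO and 1.31, 1.28 and 1.49 in control DMSO. Only in control DMSO did ERK-directed transcript exceed JNK/p38-directed transcript in every library. Control bortezomib and Lo19S DMSO overlapped, and Lo19S bortezomib lay below all others. The ERK-directed sum was 8.10 ± 0.11 CPM per kb in Lo19S bortezomib, 12.7 ± 0.45 in control bortezomib, 5.67 ± 0.23 in Lo19S DMSO and 8.64 ± 0.90 in control DMSO. The JNK/p38-directed sum was 12.2 ± 0.60, 14.5 ± 0.96, 6.47 ± 0.62 and 6.34 ± 0.30 CPM per kb in the same groups. These ratios are a description, since the classes hold few genes and DUSP5 carried much of the ERK-directed sum.

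The kinases that the phosphatases act on, and the genes ERK drives, moved in both directions with bortezomib. The shares of all genes tested to read these counts against are 37.8% higher and 39.7% lower in Lo19S cells and 39.2% higher and 42.2% lower in control cells. Of 16 ERK feedback and target genes, 9 rose and 3 fell in Lo19S cells and 11 rose and 3 fell in control cells. FOSL1, an AP-1 subunit, rose by 6.18 in Lo19S cells and by 7.55 in control cells (log2, edgeR adjusted p = 3.48e-39 and 7.1e-45), and the ERK feedback inhibitor SPRY4 rose by 2.82 and 3.71 (edgeR adjusted p = 1.49e-18 and 1.02e-24). Of 15 ERK cascade kinases and adaptors, 10 rose and 4 fell in Lo19S cells and 9 rose and 5 fell in control cells. HRAS fell, with log2 fold changes of -1.24 in Lo19S cells and -1.958 in control cells (edgeR adjusted p = 1.78e-19 and 8.35e-26). Of 17 JNK cascade genes, 9 rose and 5 fell in Lo19S cells and 8 rose and 5 fell in control cells, with JUN, the transcription factor that JNK is named for, up by 2.70 and 3.20 (log2, edgeR adjusted p = 7.42e-42 and 3.91e-46). Of 17 p38 cascade genes, 8 rose and 8 fell in Lo19S cells and 8 rose and 9 fell in control cells, close to those shares in both directions. MAP2K6, a direct activator of p38, held 6 counts in Lo19S bortezomib against 251 in Lo19S DMSO, and 1 count in control bortezomib against 209 in control DMSO, summed over 3 libraries. After scaling for effective library size, its level was 36.3 times lower with bortezomib in Lo19S cells, with an exact 95% counting interval of 16.4 to 99.8, and 154 times lower in control cells, with an interval of 27.3 to 6104.

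A further list of phosphatase-related genes linked to MAP kinases, which holds other DUSP genes as well as STYX and STYXL1, moved in both directions. Of 14 listed, 10 were tested, and 4 rose and 3 fell with bortezomib in Lo19S cells while 3 rose and 5 fell in control cells, near the shares of all genes that rose (37.8% and 39.2%) and fell (39.7% and 42.2%). PPM1D, a p53-induced phosphatase of p38, rose by 0.72 and 1.22 in Lo19S and control cells (log2, edgeR adjusted p = 3.55e-10 and 4.67e-19). DUSP19 and PPM1L fell in both states. DUSP19, at 2.49 CPM or less on average in each group, had log2 fold changes of -2.18 and -2.61 (edgeR adjusted p = 3.3e-07 and 6.72e-06). Those of PPM1L were -0.89 and -1.22 (edgeR adjusted p = 5.41e-12 and 2.05e-15). Of 6 ERK5 cascade genes, 4 rose and 2 were not called in Lo19S cells, and 4 rose and 2 fell in control cells. Median log2 fold changes with bortezomib in Lo19S and in control cells were 0.44 and 0.51 for the ERK cascade and 0.76 and 0.98 for ERK targets. They were 0.26 and 0.12 for the JNK cascade, 0.07 and -0.28 for the p38 cascade and 0.75 and 0.66 for the ERK5 cascade. For the further list of phosphatase-related genes they were -0.08 and -0.18.

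ERK targets went in both directions in Lo19S against control cells under bortezomib. In that comparison 3 of the 16 ERK targets were higher and 6 were lower, where 22.0% of all genes tested were higher and 21.2% were lower. The genes with the largest changes, which the rule for naming selects, were among the lower ones. FOSL1 averaged 65.4 ± 1.12 CPM in Lo19S bortezomib and 131 ± 1.015 CPM in control bortezomib (log2 fold change -1.01, edgeR adjusted p = 1.17e-20). PHLDA1, another immediate ERK target, averaged 31.1 ± 2.29 and 68.8 ± 2.41 CPM in the same groups (log2 fold change -1.15, edgeR adjusted p = 5.64e-18). Of 17 JNK cascade genes 2 were higher and 4 were lower, and JUN was among the lower ones. JUN averaged 259.8 ± 2.70 CPM in Lo19S bortezomib and 414 ± 7.57 CPM in control bortezomib (log2 fold change -0.67, edgeR adjusted p = 7.47e-20). Of 15 ERK cascade kinases and adaptors 4 were higher and 1 was lower. HRAS and SHC1 were among the higher ones (log2 fold change 0.61 and 0.45, edgeR adjusted p = 3.27e-06 and 7.6e-14). Across the 4 lists of 15 or more genes the median log2 fold change in that comparison ran from -0.08 to 0.08, near that of all genes, where the 10 phosphatases had -0.46.

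The genes with the pattern most like each of the 4 most variable phosphatases were found by the distance between group means of log2 CPM over the 4 groups, each gene centred on its own mean. DUSP1 was nearest to SH3BGR at a distance of 0.21, then KPNA7 at 0.33 and GADD45A, a DNA damage- and stress-induced gene, at 0.37. KPNA7 averaged only 0.17 CPM in Lo19S DMSO and 0.056 CPM in control DMSO, so its distance is uncertain. SH3BGR averaged 182 CPM in Lo19S bortezomib, 324 CPM in control bortezomib, 10.6 CPM in Lo19S DMSO and 10.7 CPM in control DMSO. DUSP10 was nearest to the interferon-induced gene IFIT3 at 0.08 and to SDCBP at 0.11, then to ENSG00000258682 at 0.12, an identifier without a symbol. DUSP6 was nearest to HSD17B12 at 0.03, TCEA1P2 at 0.05 and ERO1B at 0.06. DUSP9 was nearest to CRABP1 at 0.08, ITPKA at 0.18 and MIR4477B at 0.20. ENSG00000258682, ITPKA and MIR4477B were also low, at 1.95, 1.30 and 1.42 CPM in the group where each was highest. With only 4 group means, likeness of pattern is a description of levels.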

How the data were processed

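The study sequenced RNA of T47D cells in 12 libraries, 3 in each of 4 groups taken from the sample labels. The deposited files hold whole-number read counts per gene, without normalization, 1 file a library. Per the submitters' processing notes, STAR 2.5.4b and featureCounts 1.6.1 were used with GRCh37, and per the labels' protocols the kit was a stranded polyA kit. How strand and multiply matching reads were treated in the counting is not stated in the labels or notes, so paralogs, pseudogenes and overlapping genes are uncertain.

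The filter was edgeR's filterByExpr with the groups given, which kept 14714 of 57773 genes. Counts were scaled with TMM and fitted with 1 coefficient per group over all 12 libraries by edgeR 4.0.16 (robust quasi-likelihood test, R 4.3.3), after the script had been tested on simulated data. The 5 comparisons were bortezomib against DMSO in each state, Lo19S against control cells under each treatment, and the bortezomib response in Lo19S cells minus that in control cells. Adjusted p-values are Benjamini-Hochberg over all genes tested, with a threshold of 0.05. The SE of a log2 fold change is its size divided by the square root of the quasi-likelihood F, an approximation, and 95% intervals are 1.96 SE to either side. CPM are TMM-scaled, and per kilobase values use exon lengths of GENCODE 29, which belongs to another build. Library totals of 7376597 to 15003480 counts limit the low genes: a count of 0 allows up to 3 counts, and such floors and counting intervals hold counting error alone, because PCR copies of a molecule cannot be told apart here.

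Alternatives were DESeq2 1.42.0 size factors, library totals alone, no filter, the DESeq2 Wald test, only the 2 groups compared, each library left out and a replicate block. Every MAP kinase phosphatase is named. From each pathway list, the called genes with the largest change are the ones eligible to be named, up to 4 a list with bortezomib and 3 between states, and the 3 nearest patterns are named for the 4 most variable phosphatases. The genes and lists were chosen with earlier results of these data known. Of 117 listed genes, 115 were found by symbol. Sequences are from RefSeq promoters of GRCh38.p14.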

Additional observations from a re-analysis of the deposited data

Results flagged for a closer look

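For 5 of the 10 phosphatases the bortezomib response differed between the states by the test of the difference itself (edgeR, Benjamini-Hochberg adjusted over all genes). Over all genes tested, 13.4% had a difference called below 0 and 14.5% had one called above 0. The response in Lo19S minus that in control cells was -1.15 for DUSP1, -1.02 for DUSP2, 0.47 for DUSP4, -0.96 for DUSP7 and -0.84 for DUSP10 on the log2 scale. DUSP1 and DUSP7 held under every alternative run. DUSP2 lost its call without control bortezomib replicate 2, and DUSP4 and DUSP10 lost theirs with the DESeq2 Wald test and without single libraries. DUSP2 and DUSP7 had in common that the Lo19S bortezomib libraries lay below the libraries of the 3 other groups. Groups of 3 libraries were too small to look for single outlying values.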

How the results depend on the processing

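Of 893 values of a log2 fold change of a phosphatase under an alternative, 850 kept their direction and side of the threshold, 10 gained a call, 10 lost one and 23 changed sign, all 23 of values that were not called. The 5 called differences became 3 with the DESeq2 Wald test, DUSP1, DUSP2 and DUSP7, and the other counts of phosphatases called stayed within 1.5 times. With library totals alone the median of all genes moved to -0.42 in control cells and -0.31 in Lo19S cells with bortezomib, and to 0.11 for Lo19S against control under bortezomib and 0.10 for the difference. The share of calls that were higher was then 30.6%, 32.0%, 72.3% and 72.7% in these comparisons, against 48.1%, 48.7%, 50.9% and 52.0% with TMM. Under that scaling DUSP2 and DUSP7 had bortezomib log2 fold changes of -0.28 and -0.18 in control cells, DUSP6 and DUSP8 were at 0.10 and 0.0083 in Lo19S against control under bortezomib, and the DUSP5 difference was 0.028. DUSP9 in Lo19S cells then reached a call (-1.19, adjusted p = 0.0102), as did DUSP4 in Lo19S against control under bortezomib (adjusted p = 0.00855), which was also called when only the 2 groups compared were fitted (adjusted p = 0.0467).

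Leaving out single libraries moved values near 0 across it. For Lo19S against control under DMSO, the ranges were -0.084 to 0.0079 for DUSP2, -0.29 to 0.14 for DUSP6 and -0.13 to 0.13 for DUSP8. Under bortezomib DUSP6 ranged from -0.094 to 0.031. The bortezomib response of DUSP2 in control cells ranged from -0.12 to 0.20. The difference of responses ranged from -0.20 to 0.020 for DUSP5, from -0.15 to 0.27 for DUSP6 and from -0.23 to 0.025 for DUSP8. The cause was not tested. Same-numbered libraries did not deviate together (18 correlations from -0.07 to 0.03), so the numbers were not taken to pair them, and the fit with a replicate block called 8, 9, 2, 5 and 5 phosphatases in the 5 comparisons and changed 0 of 50 calls.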
